A study of Oryza sativa Japonica Group with 30 samples.

Results

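Genes for heat shock chaperones of the Hsp90 and Hsp100/ClpB families were examined in the developing rice grain. The 10 genes were chosen by locus identifier, and 9 of them had a value among 55801 gene identifiers. They comprised all 3 ClpB-type Hsp100 genes of the list (Hsp101, ClpB-c and ClpB-m) and 6 of its 7 Hsp90 genes. The remaining Hsp90 locus, LOC_Os09g30439, is not analysed here.

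RNA was sequenced from whole unripe caryopses, the grain with its fruit coat, 7 days after pollination, in 30 samples of Oryza sativa Japonica Group. The samples fell into 10 groups of 3. Lines with ONAC127 over expressed, lines with ONAC129 over expressed, ONAC127 mutant lines, ONAC129 mutant lines and wild-type ZH11 plants were each grown in paddy fields under natural heat stress and under normal cultivation. Under heat stress the air was above 35 °C for about 6 h daily and reached about 40 °C, and under normal cultivation it exceeded 35 °C on 3 days, with a daytime mean near 30 °C. ONAC127 and ONAC129 encode NAC transcription factors. The promoter of the overexpression constructs, the kind of mutant allele and the number of independent lines are not stated, and neither is whether samples of 1 group were taken from different plants.

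Each gene had a single value, its normalised read count averaged over all 30 libraries. The design sets genotypes side by side, and heat beside normal cultivation, but a pooled mean holds no such comparison. No fold change, SD or test between groups is given. Endosperm genes served as a check of the tissue (WX, the granule-bound starch synthase, and NF-YB1, an endosperm transcription factor). They were read at 39906 and 4991 normalised counts, so RNA of the labelled tissue was present. The relative depth of the libraries ran from 0.551 to 1.64, and the total count of each library is not known. Normalised counts are not divided by gene length, and no transcript lengths were used here. All orders and ratios between genes below are therefore of counts, not of transcripts per length.

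Hsp90 is an ATP-driven chaperone that acts late in folding and holds kinases, receptors and other client proteins in a form that can be activated. It also binds heat shock factors in unstressed cells, which keeps them inactive. Hsp100 proteins of the ClpB type are ring-shaped disaggregases: working with Hsp70, they pull single chains out of protein aggregates through a central pore. Hsp101, the cytosolic ClpB of plants, is required for acquired thermotolerance in Arabidopsis and maize, and it is made both after heat and during normal seed development. Plants carry further ClpB proteins in plastids and mitochondria.

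The 3 ClpB genes lay far apart. Hsp101 (LOC_Os05g44340, chromosome 5), the cytosolic disaggregase, had a pooled mean of 17417 normalised counts, with a counting error of at most 32.5 (SE), and ranked 59 of all genes. ClpB-c (LOC_Os03g31300, chromosome 3), which serves the plastid, had 2009 normalised counts (counting SE at most 11.0) and ranked 1017. ClpB-m (LOC_Os02g08490, chromosome 2), which serves the mitochondrion, had 997 normalised counts (counting SE at most 7.76) and ranked 2120. Hsp101 thus collected 85.3% of the counts of the 3 genes, against 9.84% for ClpB-c and 4.88% for ClpB-m. Its count was 8.67 times that of ClpB-c (95% counting interval 8.57 to 8.77) and 17.5 times that of ClpB-m (17.2 to 17.7). The plastid gene had 2.02 times the count of the mitochondrial one (1.98 to 2.05).

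The counting errors come from the number of reads alone. The 1-read steps recovered from the lowest values show that Hsp101 was covered by 288036 to 859140 reads over all libraries, and ClpB-m, the least read member, by 16489 to 49182. The exact number within each range depends on which libraries held the reads, which is not known. These intervals do not include the spread between plants, genotypes or conditions, and PCR copies are not independent molecules.

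The 6 Hsp90 genes with a value fell into a high set and a low set of 3 each, a split seen in the values and not tested. LOC_Os08g39140 (chromosome 8) had 14986 normalised counts (counting SE at most 30.1) and ranked 76 of all genes. LOC_Os09g30412 (chromosome 9) had 11884 (counting SE at most 26.8) and ranked 102. LOC_Os04g01740 (chromosome 4) had 11181 (counting SE at most 26.0) and ranked 116. The highest of the 3 had 1.34 times the count of the lowest. Together they held 88.7% of the counts of the 6 Hsp90 genes, a sum that leaves out LOC_Os09g30439.

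The other Hsp90 loci had far fewer counts. LOC_Os09g29840 (chromosome 9) had 2157 normalised counts (counting SE at most 11.4), and LOC_Os09g30418 (chromosome 9) had 1483 (counting SE at most 9.47). LOC_Os08g38086 (chromosome 8) was the lowest Hsp90 gene measured, with 1185 normalised counts (counting SE at most 8.46). Among these 3, the count of LOC_Os09g29840 was 1.82 times that of LOC_Os08g38086. On chromosome 8, LOC_Os08g39140 had 12.6 times the count of LOC_Os08g38086 (95% counting interval 12.5 to 12.8). The reference does not pair these loci with names, so no compartment is given for any Hsp90 gene.

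**Figure D1:**
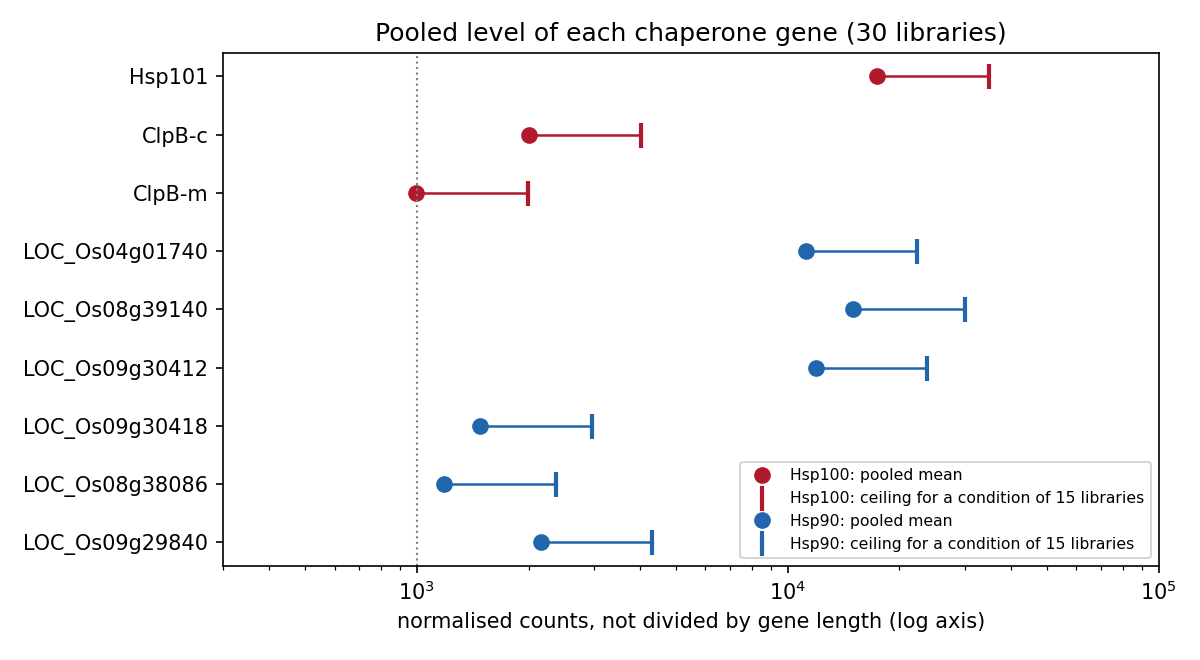
Pooled mean normalised counts of the 9 chaperone genes (points; horizontal log axis), Hsp100 genes in red and Hsp90 genes in blue. Each bar ends at the ceiling, the highest mean that a condition of 15 libraries could have had, and the dotted line marks 1000 normalised counts. Hsp101 and 3 Hsp90 genes lie between 11181 and 17417, and the other 5 genes lie between 997 and 2157.

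LOC_Os09g30412 and LOC_Os09g30418 are near neighbours, with 1 identifier (LOC_Os09g30414, at 7.13 normalised counts) listed between them. The first had 8.01 times the count of the second (95% counting interval 7.91 to 8.12) and held 88.9% of the 13367 normalised counts of the pair. Adjacent Hsp90 copies on this chromosome share reads, and how reads that map to more than 1 place were handled is not stated. The split between the copies is therefore uncertain, and the sum of the pair is the safer value. LOC_Os09g30439, the third copy of the cluster, would bear on the split as well, and reads shared with it would affect the sum of the pair too. In the RefSeq table the symbols HSP81-2 and HSP81-3 also stand close together on chromosome 9, with 2 genes listed between them, and HSP81-1 stands on chromosome 8. The table holds no LOC_Os identifiers, so these symbols were not assigned to single loci.

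The 9 members with a value together held 63299 normalised counts, 0.545% of the total of the profile. The 6 Hsp90 genes held 0.369% and the 3 ClpB genes 0.176%, which makes the summed Hsp90 counts 2.10 times the summed ClpB counts. These sums are over unlike numbers of genes. The mean per gene was 7146 normalised counts for the Hsp90 genes and 6808 for the ClpB genes. Among these 9 members, the 4 highest genes (Hsp101, LOC_Os08g39140, LOC_Os09g30412 and LOC_Os04g01740) held 87.6% of the counts. A gap separated them from the other 5: LOC_Os04g01740 had 5.18 times the count of LOC_Os09g29840, and 832 genes ranked between them.

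The order of the 9 genes by count was Hsp101, LOC_Os08g39140, LOC_Os09g30412, LOC_Os04g01740, LOC_Os09g29840, ClpB-c, LOC_Os09g30418, LOC_Os08g38086 and ClpB-m. Neighbours in this order were separated by more than their counting error in all 8 steps. The closest were LOC_Os09g30412 and LOC_Os04g01740, at a ratio of 1.06 (95% counting interval 1.06 to 1.07), and LOC_Os09g29840 and ClpB-c, at a ratio of 1.07 (1.06 to 1.09). Whether any of these neighbours differ beyond the spread between samples was not tested, because that spread is not in a pooled mean. Gene length can change the order as well, and so can the uncertain split of reads between LOC_Os09g30412 and LOC_Os09g30418. The 702 normalised counts between LOC_Os09g30412 and LOC_Os04g01740 are fewer than the 1483 of LOC_Os09g30418.

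All 9 genes stood high in the caryopsis profile. The median of the 40831 genes above 0 was 15.9 normalised counts, and the median of the 9 chaperone genes was 2157. All 9 were in the top 10% of genes above 0, which began at 508 normalised counts, and 8 were in the top 5%, which began at 1031. The 4 highest were in the top 1%, which began at 4260 normalised counts. ClpB-m, the only member outside the top 5%, lay above 94.8% of the genes above 0. The mark of 1000 normalised counts was reached by 8 of the 9 members and by 5.17% of the genes above 0. ClpB-m missed it by less than its counting error, with an interval of 982 to 1012. These are named genes picked from known families, so a high place in the profile was likely in advance.

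**Figure D2:**
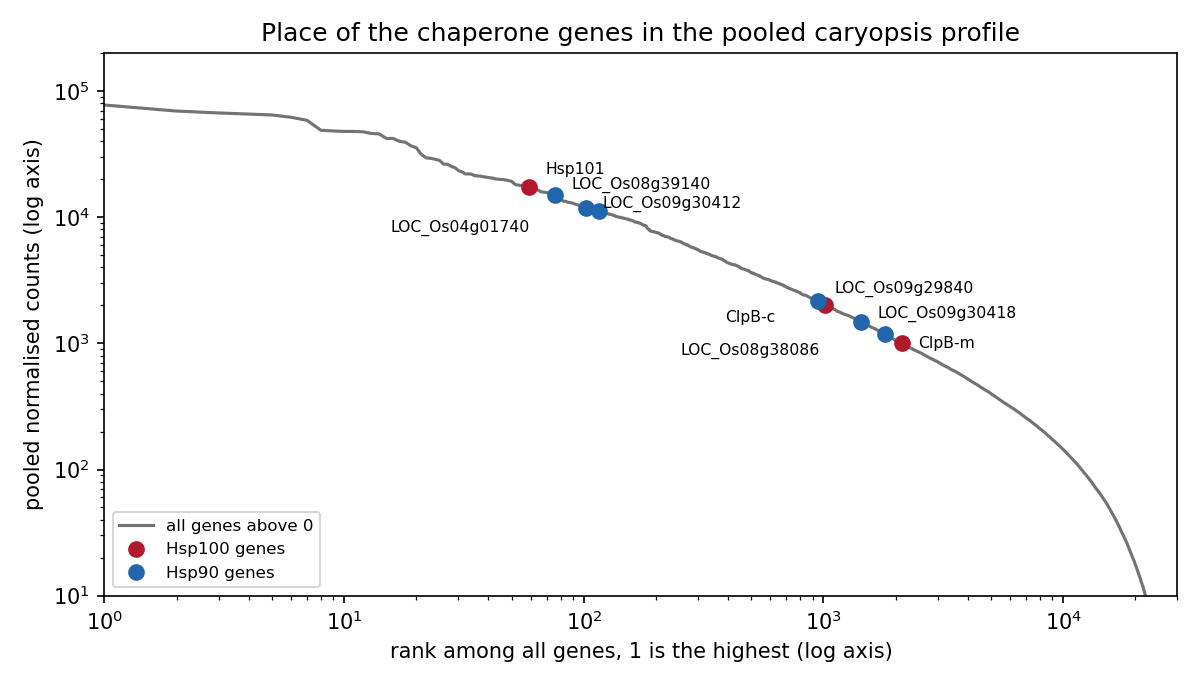
Pooled normalised counts (vertical log axis) against rank among all genes (horizontal log axis, 1 is the highest). The grey line is all genes above 0, red points are Hsp100 genes and blue points are Hsp90 genes. Hsp101 ranks 59 and the 3 high Hsp90 genes rank 76 to 116, while the other 5 genes rank 949 to 2120.

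A pooled mean sets a ceiling on what any condition could have held. With 15 of the 30 libraries in each condition, a gene's mean over the heat-stressed or over the normally grown samples cannot exceed 2 times its pooled mean. The ceiling was 34834 normalised counts for Hsp101 and 1994 for ClpB-m. For the 5 low members it ran up to 4314 normalised counts, that of LOC_Os09g29840. Each of the 4 high members had a pooled mean of at least 11181, and its mean in the higher of its conditions was at least as large. LOC_Os09g30412 and LOC_Os09g30418 are left out of the next statement, because the split of reads between them is uncertain. Among the other 7 genes, no low member, averaged over heat-stressed or over normally grown samples, reached the mean count that any high member had in the higher of that member's conditions. This follows from the ceiling and the pooled values alone. It does not give the order of high and low members within the same condition. For a single group of 3 libraries the ceiling is 10 times the pooled mean, 9971 normalised counts for ClpB-m. The pooled values do not say in which condition, genotype or tissue of the grain a chaperone was read, and more cells with a transcript cannot be told apart from more transcript per cell.

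The listed neighbours of each locus are separate genes, so their counts describe its surroundings and are not a background signal. Of the 9 chaperone genes, 6 had more counts than each of the 5 gene identifiers on either side. The share of all genes for which this holds was not computed. The members stand high in the profile, so a place above their 10 neighbours was likely in advance and is no separate result. Hsp101 had 46.1 times the count of its highest neighbour, LOC_Os05g44390 at 378 normalised counts. LOC_Os08g39140 had 29.9 times and LOC_Os04g01740 had 19.6 times the count of the highest gene beside them. The median of the neighbours of LOC_Os04g01740 was 0.180 normalised counts, and 2 of its 10 neighbours were listed at 0. ClpB-m was closer to its surroundings, at 1.66 times its highest neighbour, LOC_Os02g08520 at 601 normalised counts. LOC_Os09g29840 had 2.43 times the count of its highest neighbour.

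The 3 exceptions each had 1 higher neighbour. ClpB-c lay 4 identifiers from LOC_Os03g31360, which had 42080 normalised counts, although the median of its 10 neighbours was 0.938. LOC_Os08g38086 lay 3 identifiers from LOC_Os08g38060, which had 1563 normalised counts. LOC_Os09g30418 had only its Hsp90 neighbour LOC_Os09g30412 above it. Whether counting used strand is not stated, so reads of overlapping or antisense genes may not be told apart. None of the 9 chaperone genes has a next listed identifier on either side with more than 638 normalised counts, the value of LOC_Os03g31310 beside ClpB-c. Such counts are not small against the lower members: ClpB-c had 2009, and ClpB-m had 997 beside LOC_Os02g08480 at 461.

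**Figure D3:**
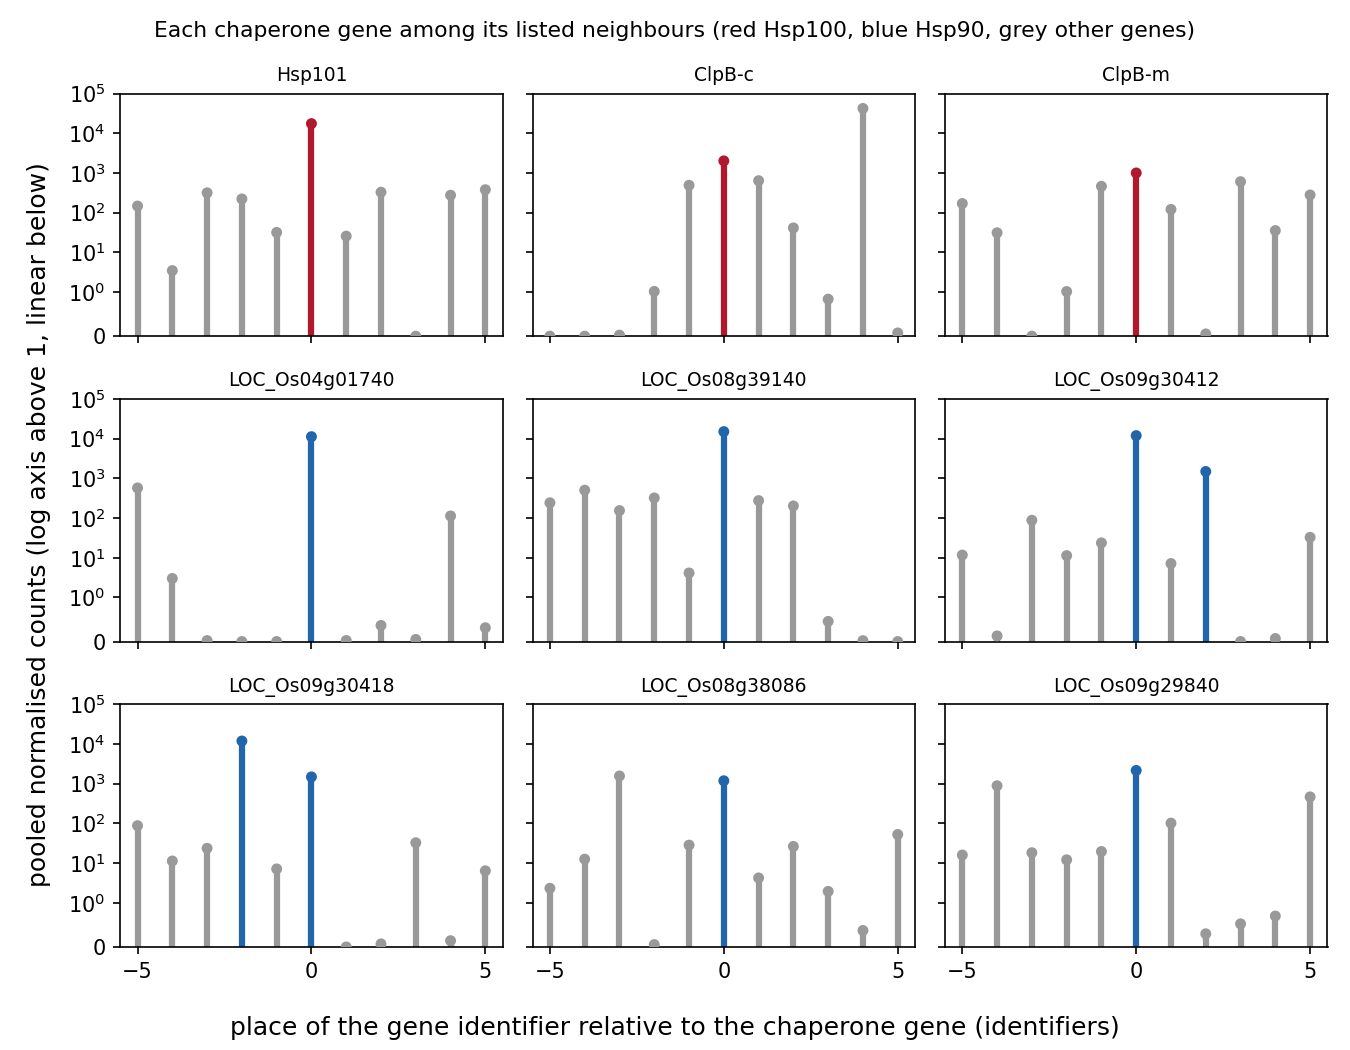
Pooled normalised counts (vertical axis, logarithmic above 1 and linear below) of each chaperone gene, at place 0, and of the 5 gene identifiers listed on each side of it. Red is Hsp100, blue is Hsp90 and grey is any other gene. Hsp101 stands 46.1 times above its highest neighbour, while ClpB-c, LOC_Os09g30418 and LOC_Os08g38086 each have 1 higher gene within 5 identifiers.

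A list of 10 related genes was set beside the members: 2 other Hsp90 loci, 3 other Hsp100 genes, 3 partners of Hsp90 and 2 heat shock factors. All 10 were above the median of the genes above 0, and 6 reached 1000 normalised counts. Their median was 1101 normalised counts and their highest value 2481, so only the 4 high chaperone genes, and none of the other 5, exceeded every gene of this list. Symbols in the RefSeq table matched 7 of the 10, and the 3 others, the 2 other Hsp90 loci among them, had 1057 to 2481 normalised counts and are not named here.

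The other Hsp100 genes belong to the Clp types that feed proteins to the plastid Clp protease. CLPC1 (LOC_Os04g32560) had 1144 normalised counts, CLPC2 (LOC_Os12g12850) had 588 and CLPD1 (LOC_Os02g32520), whose Arabidopsis counterpart responds to drying, had 47.5. All 3 lay below the 2009 of the plastid disaggregase ClpB-c, and CLPC1 lay above the 997 of ClpB-m. SGT1 (LOC_Os01g43540), a co-chaperone that joins Hsp90 in the folding of plant immune receptors, had 1374 normalised counts. RAR1 (LOC_Os02g33180), which links SGT1 to Hsp90, had 246. Of the heat shock factors, HSFA2C (LOC_Os10g28340), of the activator class, had 2097 normalised counts, and HSFB4B (LOC_Os07g44690), of class B, had 48.5. The RefSeq entry that matched HSFA2C is listed as a transcribed pseudogene.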

How the data were processed

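RNA-seq of 30 caryopsis samples was used, and titles gave the groups. CASAVA 1.7, HISAT2 2.0.5 and DESeq2 are named in the submitters' processing notes. Neither the read counter nor the genome build or annotation is given in the sources used here. The 8 deposited tables were identical and, per the file headers, held a gene identifier and a baseMean. This signal is the mean over libraries of counts divided by size factors, as the authors' header names it. It carries no sample, so the planned edgeR tests were not run.

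The worth of 1 read in each of 30 libraries was recovered as those values below 3.5 times the lowest that are no sum of smaller ones within 1e-11. This was checked on simulated pooled means. The lowest size factor limits the counting variance of a pooled mean from above, and 95% counting intervals follow from that limit. A count of 0 allows 0.181 (3 reads in the shallowest library).

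Symbols were matched to RefSeq ASM3414082v1 (39387 genes, none with a LOC_Os identifier) by chromosome and relative place within 0.1. Of the members, 3 matched. The HSFA2C entry is a transcribed pseudogene there. All members and the related genes were named by rule. Members and lists were chosen with earlier results of these data known. The gap, the neighbours and the ceilings were examined after the values were seen. Computations ran in Python 3.11.15 with pandas 2.3.3 and numpy 2.4.6, and plots in matplotlib 3.10.9.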

Additional observations from a re-analysis of the deposited data

How the results depend on the processing

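No paired analysis was possible because 1 value per gene stands for all samples. Other normalisation, tool, filter and left-out replicates need values per sample and were not run, and protein lengths were not used here. The members reaching the mark numbered 9 at 500 and 6 at 2000 normalised counts in place of 8, and 7 of 8 genes with the chromosome 9 pair summed. All 9 stayed above the median with zeros included and among genes of at least 10. Without the 10 highest genes of the profile the members held 0.575% of the total in place of 0.545%. The pair summed held 31.2% of the counts of the Hsp90 genes with a value, against 27.7% for LOC_Os09g30412 and 3.46% for LOC_Os09g30418 alone. Chosen after seeing the data, adding the 2 other Hsp90 loci lowered the share of the 3 high Hsp90 genes to 83.4% in place of 88.7%, and adding the 3 other Hsp100 genes lowered the share of Hsp101 to 78.4% in place of 85.3%, since the sums hold more genes. Steps numbered 30 under both other tolerances and both other spans, and 6 members exceeded every neighbour with 10 identifiers on each side too. The pooling limits every value: its spread between samples cannot be stated.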
